A study of Homo sapiens with 8 samples.

Results

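The CCT chaperonin, also called TRiC, is built from 8 subunits encoded by TCP1, CCT2, CCT3, CCT4, CCT5, CCT6A, CCT7 and CCT8, and the growth effect of knocking down each of them was followed here in a pooled CRISPRi screen. The genes were taken by the symbol at the start of each sgRNA name, and all 8 were found among 17547 genes tested. Of the 80 sgRNAs listed for them, 10 per gene, 40 had reads, 5 per gene, and every one of these 40 passed the minimum mean count of 20 per library. All belong to sets that the names mark as serving both the first and the second promoter of the gene (P1P2).

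The screen used K562, a human leukaemia line whose labels call it lymphoblast cells, carrying dCas9-KRAB, a catalytically dead Cas9 fused to a transcriptional repressor. There were 4 groups of 2 libraries: mutant uL16 at day 9, mutant uL16 at day 0, wild-type uL16 at day 9 and wild-type uL16 at day 0. All groups carried dCas9-KRAB and the sgRNA library, a stably expressed uL16 (the ribosomal protein that RPL10 encodes), and had no further treatment after puromycin selection at 1 µg/ml for 3 days. The labels do not name the mutation, and the sample titles call the mutant line only delta. They do not say whether a line is 1 clone or whether the endogenous RPL10 was removed. The growth period is given as day 9 in the labels and as 10 doublings in the design text. The labels do not say that replicates came from separate cultures, so p-values measure the spread between these libraries, which may be technical. The reads are sgRNA sequences from genomic DNA, so they hold no expression values, and neither the knockdown of each subunit nor the identity of the cells could be checked.

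CCT is an ATP-driven folding machine of the cytosol, made of stacked rings in which each subunit has a fixed place. It encloses newly made proteins in a central chamber, and actin and tubulin are its best known substrates, together with propeller-shaped WD40 proteins such as the cell cycle activator CDC20 and the mTOR partner MLST8. Prefoldin hands unfolded chains to the ring, and phosducin-like proteins act on it as co-chaperones. Each subunit gene is essential in yeast.

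CRISPRi sgRNAs are placed around the start of a gene, on either side of it. The 250 bases before the start are shown for 4 subunits, from RefSeq (GRCh38.p14), each read in the direction of the gene. The first are CCT7, with the largest mean fall of the 8 in the summed counts, and CCT2, the subunit of which every sgRNA fell in both lines. The others are TCP1, next to a gene that also fell, and CCT8, of which no sgRNA passed the edgeR test below. The 4 windows lie at chr2:73234058-73234307 (plus strand), chr12:69585209-69585458 (plus strand, the first of 2 starts in the table), chr6:159789603-159789852 (minus strand) and chr21:29073649-29073898 (minus strand). The sgRNAs could not be placed in this build, so these windows are not shown to hold their target sites. Capitals mark the core motif of ETS factors, CGGAAG or its reverse complement CTTCCG.
CCT7: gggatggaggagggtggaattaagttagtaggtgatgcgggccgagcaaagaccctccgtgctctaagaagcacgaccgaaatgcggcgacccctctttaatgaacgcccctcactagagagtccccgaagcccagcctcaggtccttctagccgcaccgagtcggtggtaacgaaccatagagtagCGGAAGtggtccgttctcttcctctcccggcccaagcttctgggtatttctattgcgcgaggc
CCT2: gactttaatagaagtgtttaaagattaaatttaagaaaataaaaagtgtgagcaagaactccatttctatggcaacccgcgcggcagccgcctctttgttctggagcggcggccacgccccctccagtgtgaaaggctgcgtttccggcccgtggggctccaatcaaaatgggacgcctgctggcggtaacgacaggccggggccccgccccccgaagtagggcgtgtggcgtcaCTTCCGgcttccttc
TCP1: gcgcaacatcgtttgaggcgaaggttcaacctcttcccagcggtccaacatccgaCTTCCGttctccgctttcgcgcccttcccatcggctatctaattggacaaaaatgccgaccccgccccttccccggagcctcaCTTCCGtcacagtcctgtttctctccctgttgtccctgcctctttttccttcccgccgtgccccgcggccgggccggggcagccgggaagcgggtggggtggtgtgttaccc
CCT8: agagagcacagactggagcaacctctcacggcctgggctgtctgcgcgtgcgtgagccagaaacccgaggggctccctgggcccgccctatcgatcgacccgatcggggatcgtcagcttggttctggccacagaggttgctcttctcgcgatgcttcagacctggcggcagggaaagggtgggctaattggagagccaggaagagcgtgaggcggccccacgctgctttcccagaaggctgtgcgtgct

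This core, searched on both strands, was present once in the CCT7 window, once in the CCT2 window and 2 times in the TCP1 window, and these letters are not in the CCT8 window. It was found for 4 of the 7 subunits that the promoter table holds. By window, these were 4 of 9, beside 16.5% of all 35116 windows of this length. The CCAAT box (CCAAT or ATTGG) was found for 4 of the 7, TCP1, CCT2, CCT3 and CCT8. It was in 4 of the 9 windows, beside 32.0% of all windows. The GC box (GGGCGG or CCGCCC) was found for the same 4 subunits, in 5 of the 9 windows, beside 42.6% of all windows. The paired heat shock motif (GAANNTTC or TTCNNGAA, each its own reverse complement) was found for TCP1 and CCT2. It was in 2 of the 9 windows, beside 11.6% of all windows. For CCT2 it lies only in the window of the second start, which is not shown. These are matches of letters, not measured binding.

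Library totals ranged from 39233340 to 143585751 reads, and mutant replicate 2 was deeper than mutant replicate 1 at both days. The 1894 control sgRNAs, which target no gene, had a median log2 change from day 0 to day 9 of 0.04 in mutant cells (SD 0.35 over sgRNAs) and 0.05 in wild-type cells (SD 0.37). Abundances below are CPM, the summed counts of a gene's 5 sgRNAs scaled to the TMM-adjusted library size. Changes are log2 of day 9 over day 0 from edgeR's quasi-likelihood test, with a standard error (SE) and a p-value adjusted over all 17547 genes (Benjamini-Hochberg, threshold 0.05). Levels of different genes depend on how much of each sgRNA was in the library and were not compared.

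The summed sgRNAs of 7 of the 8 subunits fell by day 9 in mutant cells in the edgeR test, and the same 7 fell in wild-type cells. The exception in both was CCT8. Over all genes tested, 9.07% were lower in mutant cells and 9.28% in wild-type cells. The median log2 change of the 8 subunits was -1.33 in mutant and -1.49 in wild-type cells, beside 0.01 and 0.01 over all genes. In mutant cells, both day 9 libraries lay below both day 0 libraries for 8 of 8 subunits, as they did for 24.5% of all genes. In wild-type cells this held for 7 of 8, beside 24.2% of all genes.

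**Figure D1:**
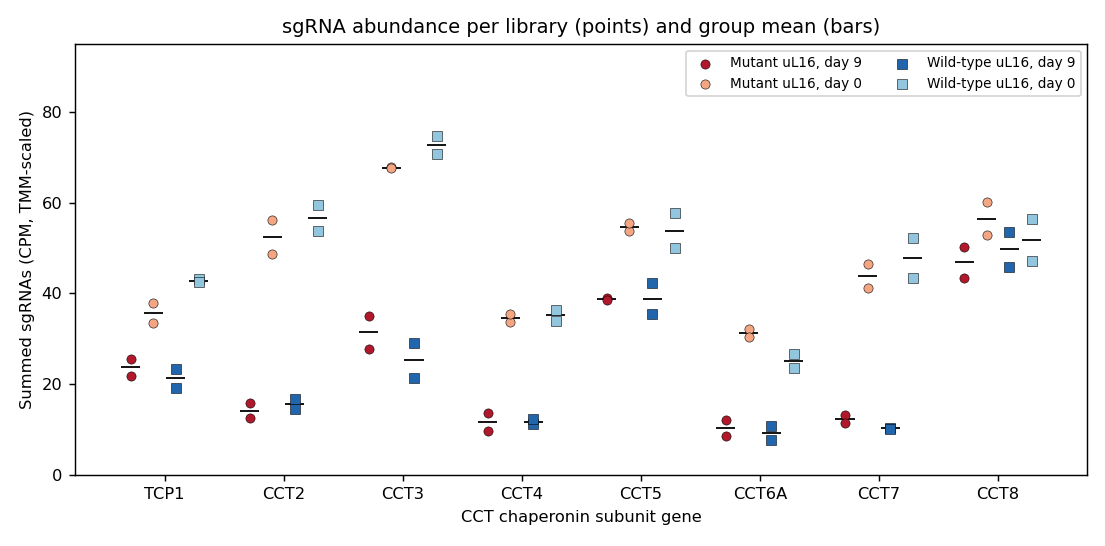
Abundance of the 5 summed sgRNAs of each CCT subunit gene in CPM (vertical axis, linear from 0), 1 point per library, with bars at the mean of each group of 2. The day 9 points lie below the day 0 points of the same line for every gene in mutant cells and for 7 genes in wild-type cells; those of CCT8 overlap in wild-type cells.

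TCP1 encodes the alpha subunit, the founding member of the family. Its sgRNAs had 25.6 and 21.9 CPM in mutant cells at day 9, against 33.5 and 37.9 CPM at day 0. In wild-type cells they had 23.3 and 19.2 CPM at day 9, against 43.2 and 42.4 CPM at day 0. Day 9 was lower without overlap in both lines, and the gap was wider in wild-type cells. Its log2 change was -0.59 in mutant cells (SE 0.14, adjusted p = 0.0033) and -1.01 in wild-type cells (SE 0.15, adjusted p = 1.74e-06). The call in mutant cells was lost without mutant day 0 replicate 2 (log2 change -0.50, adjusted p = 0.135) and without mutant day 9 replicate 2 (-0.48, adjusted p = 0.077).

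CCT2, the beta subunit, had 12.4 and 15.9 CPM in mutant cells at day 9, against 48.6 and 56.1 CPM at day 0. In wild-type cells it had 14.6 and 16.7 CPM at day 9, against 59.6 and 53.8 CPM at day 0. The highest day 9 library, at 16.7 CPM, lay far below the lowest day 0 library, at 48.6 CPM. The fall was 3.67-fold in mutant cells (log2 change -1.87, SE 0.14, adjusted p = 1.86e-12) and 3.62-fold in wild-type cells (-1.86, SE 0.14, adjusted p = 3.02e-12).

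CCT3, the gamma subunit, had 35.1 and 27.7 CPM in mutant cells at day 9, against 67.8 and 67.6 CPM at day 0. The wild-type libraries had 21.4 and 29.1 CPM at day 9, against 70.7 and 74.8 CPM at day 0. The day 9 libraries were lower without overlap in both lines, and 1 of the mutant day 9 libraries lay above both wild-type day 9 libraries. The log2 change was -1.12 in mutant cells (SE 0.13, adjusted p = 1.29e-08) and -1.53 in wild-type cells (SE 0.13, adjusted p = 1.92e-11).

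CCT4, the delta subunit, had 9.64 and 13.7 CPM in mutant cells at day 9, against 33.7 and 35.4 CPM at day 0. The wild-type values were 11.2 and 12.2 CPM at day 9, against 36.4 and 33.9 CPM at day 0. The lines were close at each day. CCT4 fell 2.93-fold in mutant cells (log2 change -1.55, SE 0.18, adjusted p = 1.44e-08) and 3.01-fold in wild-type cells (-1.59, SE 0.18, adjusted p = 1.17e-08).

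CCT5, the epsilon subunit, had 39.1 and 38.6 CPM in mutant cells at day 9, against 53.7 and 55.6 CPM at day 0. Wild-type cells had 42.3 and 35.4 CPM at day 9, against 57.6 and 49.9 CPM at day 0. Of the day 0 abundance, 71.1% was left in mutant and 72.2% in wild-type cells. The log2 change of CCT5 was -0.49 in mutant cells (SE 0.12, adjusted p = 0.00248) and -0.47 in wild-type cells (SE 0.12, adjusted p = 0.0043). Without its most abundant sgRNA the value was -0.42 in mutant cells (adjusted p = 0.0984) and -0.13 in wild-type cells (adjusted p = 0.73). The mutant call was also lost without mutant day 0 replicate 2 (-0.47, adjusted p = 0.0552), and the wild-type call without wild-type day 0 replicate 1 (-0.36, adjusted p = 0.184) or wild-type day 9 replicate 2 (-0.35, adjusted p = 0.0795).

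CCT6A, the zeta subunit, had 12.1 and 8.62 CPM in mutant cells at day 9, against 32.1 and 30.4 CPM at day 0. In wild-type cells it had 7.71 and 10.7 CPM at day 9, against 23.6 and 26.7 CPM at day 0. Both lines kept about the same share, 33.1% of the day 0 mean in mutant and 36.5% in wild-type cells. The log2 change was -1.61 in mutant cells (SE 0.21, adjusted p = 1.92e-07) and -1.45 in wild-type cells (SE 0.21, adjusted p = 1.71e-06).

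CCT7, the eta subunit, had 13.1 and 11.4 CPM in mutant cells at day 9, against 41.2 and 46.4 CPM at day 0. In wild-type cells it had 10.4 and 10.2 CPM at day 9, against 52.3 and 43.4 CPM at day 0. Its log2 change was -1.85 in mutant cells (SE 0.15, adjusted p = 1.39e-11) and -2.22 in wild-type cells (SE 0.16, adjusted p = 3.62e-13). By the summed counts, the wild-type value was the lowest of the 8. Ranked from the lowest of 17547 genes, CCT7 stood at place 205 in mutant and 123 in wild-type cells.

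CCT8, the theta subunit, had 43.4 and 50.3 CPM in mutant cells at day 9, against 60.1 and 52.9 CPM at day 0. The wild-type libraries held 53.6 and 45.9 CPM at day 9, against 47.1 and 56.4 CPM at day 0. The wild-type libraries of both days overlapped. Its log2 change was -0.27 in mutant cells (SE 0.12, adjusted p = 0.195) and -0.06 in wild-type cells (SE 0.12, adjusted p = 0.854), neither past the threshold. The mean log2 CPM of its sgRNAs was also tested with limma in place of the sum. The mutant value was then -0.52 and passed (adjusted p = 0.0444), and the wild-type value was -0.28 (adjusted p = 0.37). This mean weights rare sgRNAs like abundant ones. The rarest of the 5 had the lowest single value in mutant cells (-1.35, SE 0.95). Without its most abundant sgRNA, CCT8 had -0.33 in mutant (adjusted p = 0.237) and -0.33 in wild-type cells (adjusted p = 0.226).

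Ordered by change, the subunits ran CCT2, CCT7, CCT6A, CCT4, CCT3, TCP1, CCT5, CCT8 in mutant cells, and CCT7, CCT2, CCT4, CCT3, CCT6A, TCP1, CCT5, CCT8 in wild-type cells. Neighbours in this order mostly differed by less than 2 combined SEs. The step from CCT3 to TCP1 in mutant cells was larger (0.52, combined SE 0.19), and so were those from TCP1 to CCT5 (0.54, combined SE 0.19) and from CCT5 to CCT8 (0.41, combined SE 0.17) in wild-type cells. TCP1, CCT5 and CCT8 thus had the 3 smallest changes of the summed counts in both lines. With limma on the mean log2 CPM of the sgRNAs, this held in mutant cells but not in wild-type cells. That setting weights rare sgRNAs like abundant ones. In wild-type cells it put TCP1 at -2.44, below CCT3 (-2.41), CCT4 (-2.27), CCT2 (-2.24) and CCT6A (-2.08). It kept CCT7 lowest in both lines (-2.69 in mutant and -3.01 in wild-type cells). The combined SEs cover the spread between libraries and not the choice of sgRNAs. Without each gene's most abundant sgRNA, CCT5 and CCT8 changed places in wild-type cells (-0.13 and -0.33). CCT6A (-2.88) was then lowest in mutant cells and CCT3 (-2.68) in wild-type cells, with CCT7 at -1.86 and -2.08. As a description over the 8 genes, which were counted in the same libraries, the changes in the 2 lines had a Pearson correlation of 0.93.

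**Figure D2:**
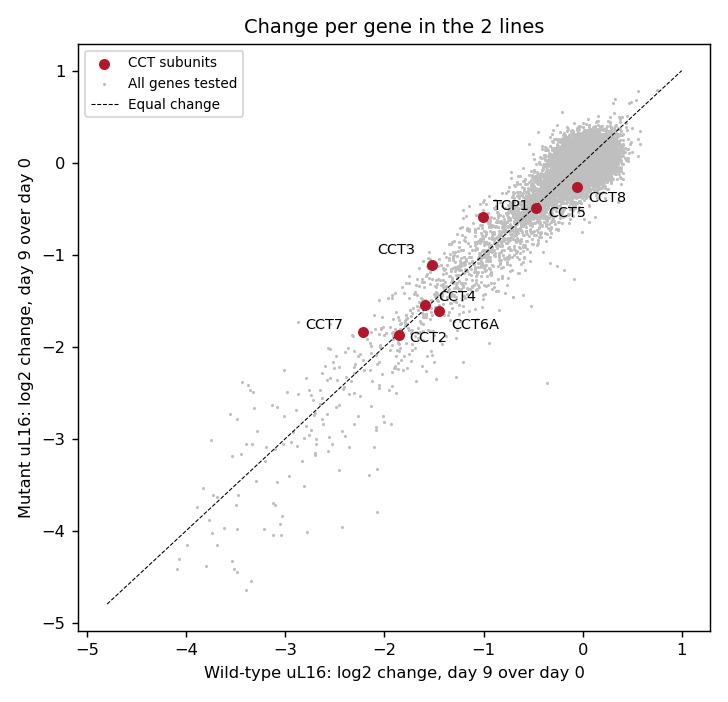
Log2 change from day 0 to day 9 in mutant cells (vertical axis) against that in wild-type cells (horizontal axis) for all 17547 genes (grey) and the 8 CCT subunits (red), with a dashed line at equal change. CCT7 and CCT2 lie lowest of the 8 and CCT8 lies at the edge of the main cloud near 0; TCP1, CCT3 and CCT7 lie furthest above the line among the 8.

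The single sgRNAs show how much each gene's sum depends on a few of them. They are numbered 1 to 5 within a gene by the position in the deposited names. The names placed only 2 of the 8 genes within 5 kb of the gene in GRCh38.p14, so distances between sgRNAs are given and no positions. sgRNAs of a gene share their target and are not replicates of a condition. Tested alone with edgeR over all kept sgRNAs, 21 of the 40 fell in mutant cells and 24 of 40 in wild-type cells, beside 5.09% and 5.2% of all targeting sgRNAs. Below the lowest 1% of the control sgRNAs (log2 change of -1.05 in mutant and -1.09 in wild-type cells) lay 24 and 24 of the 40. Of the control sgRNAs, 13 of 1894 passed the test in mutant and 17 in wild-type cells. For 5 of the 7 subunits that fell, the median of the 5 single changes was lower than the summed value by over 1.5 times in at least 1 line: TCP1 had medians of -1.63 in mutant and -1.97 in wild-type cells, CCT3 -2.42 and -2.83, CCT4 -1.69 and -2.45, CCT6A -3.54 and -1.95, and CCT7 -3.17 and -3.31. As a description, over the 40 sgRNAs the changes in the 2 lines had a Spearman correlation of 0.91.

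All 5 sgRNAs of CCT2 fell in both lines. They form 2 clusters, 3 within 34 bp and 2 that start 386 bp from the first. In the first cluster, CCT2 sgRNA 1 had 0.28 and 0.156 CPM in mutant cells at day 9, against 3.12 and 5.03 CPM at day 0, and 0.358 and 0.12 CPM in wild-type cells at day 9, against 3.67 and 3.36 CPM at day 0. Its change was -4.30 in mutant and -3.88 in wild-type cells. The least changed, CCT2 sgRNA 4 of the second cluster, was at -0.98 (adjusted p = 0.0402) and -1.28 (adjusted p = 0.00433).

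For CCT7, 4 of 5 sgRNAs fell in both lines, and neighbours as little as 30 bp apart differed. CCT7 sgRNA 2 had 6 and 16 reads in mutant cells at day 9, against 334 and 836 reads at day 0, and 2 and 17 reads in wild-type cells at day 9, against 436 and 295 reads at day 0. Its change was -5.04 in mutant and -4.74 in wild-type cells. CCT7 sgRNA 1, 30 bp away on the same strand, had 4.4 and 4.29 CPM in mutant cells at day 9, against 3.78 and 3.33 CPM at day 0, a log2 value of 0.29 (adjusted p = 0.899). Its value in wild-type cells was 0.08 (adjusted p = 0.967). CCT7 sgRNA 5, with 42.2% of the gene's day 0 abundance in mutant cells, fell in both lines (-1.80 in mutant and -2.41 in wild-type cells). The other 2, sgRNAs 3 and 4, were at -4.30 and -3.17 in mutant cells and at -4.51 and -3.31 in wild-type cells.

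In CCT3, too, neighbouring sgRNAs differed. Its sgRNAs 1, 2, 3 and 5 fell in both lines, with sgRNA 5 the lowest at -3.75 in mutant and -4.24 in wild-type cells. CCT3 sgRNA 4 lies 20 bp from sgRNA 3 on the same strand and had 17.0 and 15.5 CPM in mutant cells at day 9, against 13.6 and 12.2 CPM at day 0. Wild-type cells had 11 and 16.1 CPM at day 9, against 12.4 and 14.1 CPM at day 0. Neither value passed (0.33, adjusted p = 0.605, and 0.04, adjusted p = 0.972). It made up 23.4% of the CCT3 sgRNAs at day 0 in mutant cells and 22.3% in wild-type cells.

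In CCT4, the 3 sgRNAs lying 335 to 367 bp from the first fell in both lines. CCT4 sgRNA 4 had 13 and 19 reads in mutant cells at day 9, against 346 and 461 reads at day 0, and 4 and 9 reads in wild-type cells at day 9, against 395 and 262 reads at day 0. Its change was -3.99 in mutant and -5.12 in wild-type cells. CCT4 sgRNA 1 passed in neither line (-0.40 and -0.71), and sgRNA 2 passed in mutant cells only by its own test (-1.05, adjusted p = 0.0235, against -0.47, adjusted p = 0.531, in wild-type cells), with a difference that did not pass (-0.58, unadjusted p = 0.158).

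In CCT6A, sgRNAs 2 and 4 fell in both lines, with changes of -3.54 and -3.91 in mutant cells and -1.95 and -2.23 in wild-type cells. CCT6A sgRNA 1 had -1.43 in mutant (adjusted p = 0.148) and -0.61 in wild-type cells (adjusted p = 0.703). CCT6A sgRNA 3, which lies between them, was scarce from the start. It had 1 and 2 reads in mutant cells at day 9, against 41 and 48 reads at day 0, and 0 and 0 reads in wild-type cells at day 9, against 49 and 31 reads at day 0. Set against a floor of 3 reads over both wild-type day 9 libraries, it was at least 18.6-fold lower there, and the edgeR test passed in neither line (adjusted p = 0.215 in mutant and 0.0565 in wild-type cells). CCT6A sgRNA 5, 423 bp from the first, passed in wild-type cells (-1.05, adjusted p = 0.0335) and had -0.40 (adjusted p = 0.744) in mutant cells.

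TCP1 had its lowest values in sgRNAs that were rare at day 0. TCP1 sgRNA 3 had 2 and 3 reads in mutant cells at day 9, against 12 and 63 reads at day 0, and 1 and 1 reads in wild-type cells at day 9, against 93 and 87 reads at day 0. TCP1 sgRNA 4, 17 bp further, had 0 and 3 reads in mutant cells at day 9, against 14 and 153 reads at day 0, and 0 and 1 reads in wild-type cells at day 9, against 40 and 29 reads at day 0. sgRNA 3 passed in wild-type cells (adjusted p = 0.0105) but not in mutant cells (0.327), and sgRNA 4 passed in neither. They made up 3.73% and 1.42% of the TCP1 sgRNAs at day 0 in wild-type cells, so the summed value rests mostly on the other 3. Of those, sgRNA 5 fell in both lines (-1.63 in mutant and -1.97 in wild-type cells). TCP1 sgRNA 1 fell in wild-type cells (-1.10, adjusted p = 0.00336) and had -0.37 (adjusted p = 0.673) in mutant cells. TCP1 sgRNA 2, the most abundant, had -0.28 in mutant and -0.42 in wild-type cells and passed in neither.

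The small change of CCT5 came with 1 strongly depleted sgRNA of 5. CCT5 sgRNA 1 had 1.25 and 0.408 CPM in mutant cells at day 9, against 7.16 and 5.06 CPM at day 0, and 0.674 and 0.402 CPM in wild-type cells at day 9, against 4.16 and 5.37 CPM at day 0. Its change was -2.96 in mutant and -3.15 in wild-type cells. CCT5 sgRNA 2, 12 bp away and with 50.4% of the gene's day 0 abundance in wild-type cells, had -0.56 in mutant cells (adjusted p = 0.058) and fell in wild-type cells (-0.87, adjusted p = 0.00102). CCT5 sgRNAs 3, 4 and 5 had values from -0.16 to -0.04 in mutant and 0.10 to 0.26 in wild-type cells, none past the threshold. The median of the 5 was -0.16 in mutant and 0.10 in wild-type cells, so in wild-type cells it had the opposite sign to the summed value.

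None of the 5 CCT8 sgRNAs passed the edgeR test in either line, and at an unadjusted p under 0.05 only sgRNA 2 did, in both. CCT8 sgRNA 2 had 7.80 and 9.17 CPM in mutant cells at day 9, against 12.9 and 12.4 CPM at day 0, and 9.63 and 4.96 CPM in wild-type cells at day 9, against 9.35 and 12.9 CPM at day 0. Its value was -0.58 in mutant (adjusted p = 0.345) and -0.61 in wild-type cells (adjusted p = 0.262). CCT8 sgRNA 3 held 44.8% of the gene's abundance at day 0 in mutant cells and had -0.16 there and 0.25 in wild-type cells. The rare CCT8 sgRNA 5 had 0.737 and 0.068 CPM in mutant cells at day 9 (29 and 7 reads). At day 0 it had 0.581 and 1.29 CPM (44 and 184 reads), so the days overlapped. Its value was -1.35 in mutant (edgeR adjusted p = 0.72) and -0.77 in wild-type cells (adjusted p = 0.816). No measure of CCT8 knockdown is in these data, so a weak effect of these sgRNAs and a weak effect of losing the subunit cannot be told apart.

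**Figure D3:**
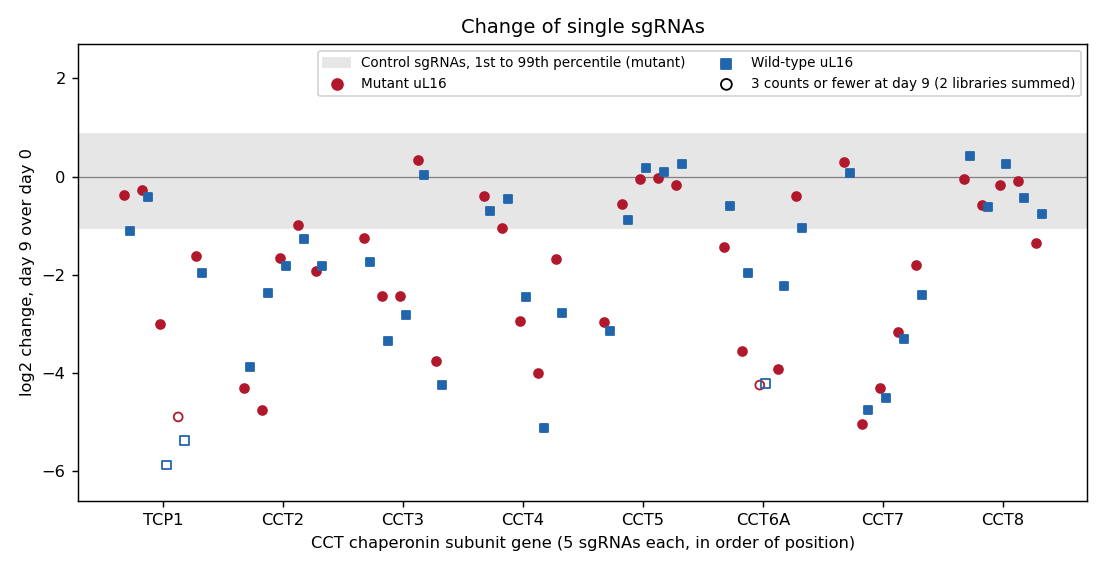
Log2 change from day 0 to day 9 of each of the 5 sgRNAs of a CCT gene, in order of position, in mutant (red circles) and wild-type cells (blue squares); open symbols have 3 reads or fewer over both day 9 libraries, CCT6A sgRNA 3 in wild-type cells is drawn at its bound, and the grey band spans the 1st to 99th percentile of control sgRNAs in mutant cells. All CCT2 sgRNAs but 1 lie below the band in mutant cells, CCT3 and CCT7 each have 1 sgRNA near 0, CCT5 has 1 far below it, and CCT8 lies near 0 but for 1 rare sgRNA.

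Several subunits share their promoter region with another gene, and dCas9-KRAB at one start is known to be able to repress the other. MRPL18, a protein of the mitochondrial ribosome, has its nearest sgRNA 328 bp from a TCP1 sgRNA. Its own sgRNAs had 33.3 and 29.0 CPM in mutant cells at day 9, against 61.6 and 65.6 CPM at day 0, and 26.3 and 25.8 CPM in wild-type cells at day 9, against 64.4 and 64.7 CPM at day 0. MRPL18 fell in both lines, with a log2 change of -1.03 in mutant (adjusted p = 6.08e-09) and -1.31 in wild-type cells (adjusted p = 4.95e-11), beside -0.59 and -1.01 for TCP1. TSACC, which has an sgRNA 290 bp from one of CCT3, had 0.10 in mutant and 0.04 in wild-type cells. FAM173B, 429 bp from a CCT5 sgRNA, had -0.17 (adjusted p = 0.552) in mutant cells and fell in wild-type cells (-0.49, adjusted p = 0.00717). PSPH, an enzyme of serine synthesis whose nearest sgRNA lies 187 bp from one of CCT6A, had -0.05 in mutant and -0.25 in wild-type cells, neither past the threshold. No sgRNA was listed at the same position under a subunit and its neighbour, and which gene of a pair sets the growth effect was not tested.

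Whether loss of a subunit slowed mutant cells more than wild-type cells is asked by the difference of the 2 changes, mutant minus wild-type. None of the 8 subunits passed, beside 0.0171% of all genes. With edgeR 2 of 8 had an unadjusted p below 0.05, beside 5.68% of all genes, and DESeq2 called 0, beside 0.268%. The 2 genes, CCT3 and TCP1, had the smaller change in mutant cells. CCT3 differed by 0.41 (95% interval 0.05 to 0.77, unadjusted p = 0.0278, adjusted p = 0.865) and TCP1 by 0.42 (0.0019 to 0.83, unadjusted p = 0.049, adjusted p = 0.874). Leaving out 1 library moved CCT3 between 0.21 (without wild-type day 9 replicate 1) and 0.65 (without wild-type day 9 replicate 2), with 0.24 without mutant day 9 replicate 1. TCP1 ran between 0.28 (without wild-type day 9 replicate 2) and 0.56 (without wild-type day 9 replicate 1), and was 0.67 without its most abundant sgRNA and 0.84 with limma. All 5 sgRNAs of CCT3 and all 5 of TCP1 had a difference above 0, where 15 of the 40 sgRNAs of all subunits were below 0. These sgRNAs were counted in the same libraries and are not replicates, so their shared sign is no further test. The differences of TCP1 sgRNAs 3 and 4 rest on few reads (SE 2.16 and 2.60). CCT7 differed by 0.37 (-0.06 to 0.81), and by 0.23 without wild-type day 0 replicate 1. The intervals of the other subunits also held 0: CCT2 at -0.02 (-0.42 to 0.39), CCT4 at 0.04 (-0.46 to 0.54), CCT5 at -0.02 (-0.36 to 0.31), CCT6A at -0.16 (-0.75 to 0.43) and CCT8 at -0.21 (-0.55 to 0.13). These intervals cover the spread between libraries and not the choice of sgRNAs, which moved some values further. Without its most abundant sgRNA, sgRNA 5, CCT6A differed by -1.15 (SE 0.35, unadjusted p = 0.00209, adjusted p = 0.789), outside its interval above. In the same setting CCT4, without sgRNA 2, differed by 0.60 (adjusted p = 0.916), CCT5 by -0.29, CCT2 by -0.15, CCT7 by 0.23 and CCT8 by -0.0019. CCT8 also ran between -0.35 and -0.084 when each wild-type day 0 library was left out. No difference of a subunit passed the adjusted threshold in any alternative run, and the lowest adjusted p was 0.227, for CCT3 without wild-type day 9 replicate 2. Of the single sgRNAs, 0 of 40 passed in this test, as did 0% of all targeting sgRNAs. An unadjusted p below 0.05 was seen for 6 of 40, beside 5.11% of targeting and 5.28% of control sgRNAs. Of the 6, CCT2 sgRNA 2, CCT6A sgRNA 2 and CCT6A sgRNA 4 were lower in mutant cells, and CCT3 sgRNA 2, CCT4 sgRNA 5 and TCP1 sgRNA 1 were lower in wild-type cells. The largest of the 6 was CCT2 sgRNA 2 at -2.38 (unadjusted p = 0.000933), while CCT2 sgRNA 1, 16 bp away, was at -0.43.

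**Figure D4:**
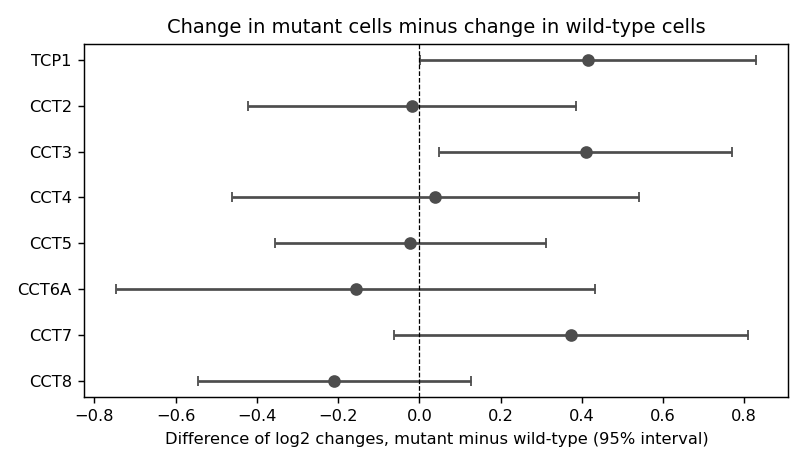
Difference of the log2 changes, mutant minus wild-type (horizontal axis), with 95% intervals, for the 8 CCT subunits. Points right of 0 have a higher log2 value in mutant than in wild-type cells; the intervals of CCT3 and TCP1 lie just right of 0 and the other 6 include it.

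Around the ring, the helpers and substrates fixed as lists gave uneven values. Their counts are to be read against the 9.07% of all genes that fell in mutant and 9.28% in wild-type cells, and most lists hold too few genes for a share to be precise. Of the 6 prefoldin subunits, 3 fell in mutant (50%) and 2 in wild-type cells (33.3%), with medians of -0.29 and -0.20. PFDN2 fell in both lines, to log2 values below those of any CCT subunit (-4.41 in mutant, adjusted p = 2.19e-15, and -4.1 in wild-type cells, adjusted p = 1.57e-14). Its sgRNAs lie as near as 95 bp to those of NIT1, which had -0.11 in mutant and -0.0063 in wild-type cells. VBP1, the prefoldin subunit that contacts the VHL protein, fell in both lines (-1.54 in mutant and -1.41 in wild-type cells). PFDN1 fell in mutant cells (-0.45, adjusted p = 0.0408) and had -0.26 in wild-type cells (adjusted p = 0.316). PFDN4, PFDN5 and PFDN6 had values from -0.14 to 0.04 in mutant and -0.13 to -0.07 in wild-type cells, none past the threshold.

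Of the 4 phosducin-like genes, none passed in edgeR. At an unadjusted p under 0.05 there were 2 in mutant and 1 in wild-type cells, and DESeq2 called 2 in mutant and 0 in wild-type cells. Over all genes, 18.1% in mutant and 20.3% in wild-type cells had such an unadjusted p, and DESeq2 called 13.4% and 15.5%. PDCL had -0.41 in mutant (adjusted p = 0.0581) and -0.31 in wild-type cells, TXNDC9 -0.31 (adjusted p = 0.0679) and -0.04, PDCL3 -0.11 and -0.22, and PDCL2 0.12 and 0.04. CCT6B, a testis paralog of CCT6A, had 0.01 in mutant and 0.03 in wild-type cells. The chaperonin-like BBS genes MKKS, BBS10 and BBS12 had values from -0.21 to 0.25 in mutant and -0.03 to 0.16 in wild-type cells. None of these 4 genes had an unadjusted p under 0.05 or a DESeq2 call. The mitochondrial chaperonin HSPD1 had -0.11 in mutant and 0.16 in wild-type cells, and its lid HSPE1 -0.16 and -0.21. Neither passed in edgeR, with 0 and 1 of the 2 at an unadjusted p under 0.05 and 0 and 1 called by DESeq2.

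Among 15 actin and tubulin genes, 3 fell in mutant (20%) and 2 in wild-type cells (13.3%), with medians of 0.05 and -0.11. Over all genes the shares were 9.07% and 9.28%, and a share of 15 genes is not precise. The cytoplasmic actins did not pass in either line, with ACTB at 0.25 in mutant and 0.06 in wild-type cells and ACTG1 at 0.18 and -0.08. The beta-tubulin TUBB fell in both lines (-0.87 in mutant and -0.87 in wild-type cells), as did the alpha-tubulin TUBA1B (-0.87 and -0.88). TUBG1, the gamma-tubulin of centrosomes, fell in mutant cells (-1.12, adjusted p = 0.0018) and had -0.74 in wild-type cells (adjusted p = 0.0594). Of 13 WD40 and other reported substrates, 4 fell in mutant (30.8%) and 5 in wild-type cells (38.5%), with medians of -0.03 and -0.08. CDC20 had the lowest values of this list (-2.47 in mutant, SE 0.62, adjusted p = 0.0049, and -3.36 in wild-type cells, SE 0.69, adjusted p = 0.000436). MLST8 also fell in both lines (-0.65 and -0.69). PPP2R2A, a regulatory subunit of phosphatase PP2A, fell in both lines (-1.21 in mutant and -1.41 in wild-type cells), as did the mitotic kinase PLK1 (-0.91 and -0.75). RPTOR, the scaffold of mTORC1, had -0.36 in mutant cells (adjusted p = 0.0827) and fell in wild-type cells (-0.94), and its difference did not pass (0.58, adjusted p = 0.822).

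Of 6 tubulin folding cofactors, 2 fell in mutant (33.3%) and 4 in wild-type cells (66.7%), with medians of -0.23 and -0.39. TBCE fell in both lines (-0.67 in mutant and -0.51 in wild-type cells), and so did TBCD (-0.55 and -0.48). ARL2, a small GTPase with 5 sgRNAs at positions also used for SNX15, had -0.16 in mutant cells (adjusted p = 0.197) and fell in wild-type cells (-0.35). Of 17 genes of the cytosolic HSP70 and HSP90 system, 5 fell in mutant (29.4%) and 6 in wild-type cells (35.3%), with medians of -0.23 and -0.25, where HSPA1A and HSPA1B have the same sgRNAs. HSP90AB1, the constitutive HSP90, fell in both lines (-0.79 in mutant and -0.82 in wild-type cells), and so did the HSP70 relative HSPA4 (-0.45 and -0.56). The ubiquitin ligase STUB1 had -0.23 in mutant cells (adjusted p = 0.287) and fell in wild-type cells (-0.63), with a difference that did not pass (0.41, adjusted p = 0.865). No gene of these lists passed in the difference with edgeR. RPTOR, TBCC and STUB1 had an unadjusted p below 0.05 there, and DESeq2 called none.

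**Figure D5:**
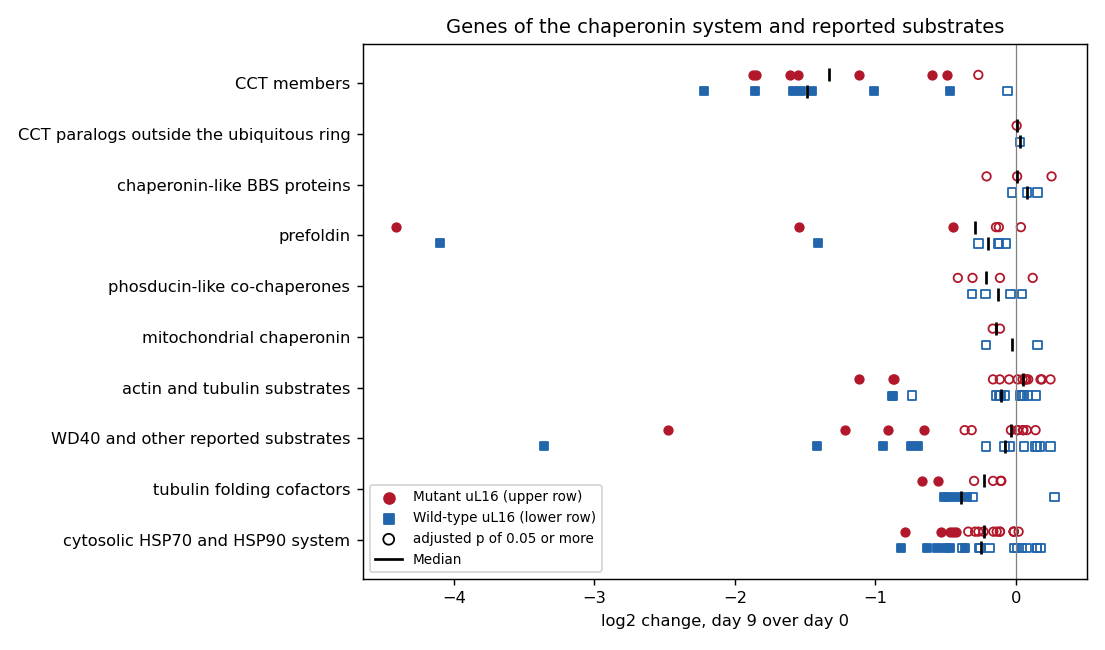
Log2 change from day 0 to day 9 (horizontal axis) of each gene, 1 row per list, mutant cells above (red circles) and wild-type cells below (blue squares), filled where the adjusted p is under 0.05, with black bars at list medians. The CCT row is filled but for 1 gene in each line, while the prefoldin row spreads from PFDN2 at -4.41 in mutant cells to values near 0.

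The genes most like the mean of the 8 subunits over the 8 libraries, by the root mean square difference of log2 CPM relative to each gene's own day 0 mean, were METTL17 (0.0588), ESF1 (0.0644), GNL3 (0.0703), MTHFD2 (0.0773) and NIP7 (0.0793). Every single subunit lay further from this mean, from 0.187 for CCT3 to 0.770 for CCT8. Nearest to CCT7 were COPZ1 (0.0737), COX16 (0.107), TTC27 (0.132), ANAPC13 (0.139) and MCM3 (0.15), and the nearest other subunit was CCT2 (0.237). Nearest to CCT8 were ACLY (0.0492), GPBP1 (0.0555), SIRT5 (0.0560), ADCYAP1R1 (0.0601) and RELL2 (0.0606), with CCT5 at 0.275. This likeness is a description of growth profiles in the same libraries. The named genes were picked as the nearest of all 17547 tested, leaving out the 8 subunits. That they lay nearer than the subunits is largely set by that choice.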

How the data were processed

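The authors deposited whole-number read counts for each sgRNA of 8 libraries, not normalized. Per the file headers, bases 1 to 39 of forward reads were kept and matched to a human CRISPRi version 2 library; which program did so is not stated in the labels or headers. Per the submitters' processing notes the build is hg38. Groups and replicate numbers come from the labels. sgRNAs with a mean count of at least 20 were summed per gene over the P1 and P1P2 sets (at least 3 sgRNAs; 87897 sgRNAs, 17547 genes) and fitted in R 4.3.3 with edgeR 4.0.16 (TMM, glmQLFit, glmQLFTest, 1 mean per group). The same test ran on 104881 single sgRNAs. All are Benjamini-Hochberg adjusted over all genes or sgRNAs. SEs come from the change and its F statistic. Alternatives used limma 3.58.1 (prior count 2), DESeq2 1.42.0, other scalings, filters, a replicate block and leaving out each library. The fit was also run on gene sums simulated with its own estimate of the spread. Such sums hold no variation between sgRNAs, so this run cannot show the effect of sgRNA choice. The floor of 3 reads covers counting error only, since PCR reads are not independent molecules. Replicates differed by more than sampling noise, so none were merged. Neighbouring genes are those with an sgRNA within 1 kb, and likeness used a pseudocount of 0.01 CPM. The members and lists were chosen with earlier results of these data known. Motifs and the sgRNAs described were picked after the values were seen. Named list genes are all measured prefoldin and phosducin-like genes and up to 3 of each other list with the smallest p; ACTB, ACTG1, CDC20 and MLST8 were added as known substrates after their values were seen.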

Additional observations from a re-analysis of the deposited data

How the results depend on the processing

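The number of CCT subunits called stayed between 5 and 8 of 8 in mutant cells, between 6 and 7 in wild-type cells and at 0 in the difference, over all alternatives run. It was 5 without mutant day 0 replicate 2, and 8 with limma on mean log2 CPM. The number of genes called in wild-type cells was 1802, and 2713 with DESeq2. For the difference it was 3, against 47 with DESeq2, and 1 to 21 when each library was left out in turn, the highest without wild-type day 9 replicate 1. With the replicate block it was 5, and the block changed no call of a subunit. Deviations of same-numbered libraries at day 9 and day 0 correlated at 0.04 in mutant and 0.02 in wild-type cells. No pairing was seen, but such a low correlation cannot exclude that same-numbered libraries share a culture. Adding sgRNA sets named by transcript, an alternative chosen after seeing the data, moved no subunit's call. Signs changed only in values that were past no threshold, and in the median of the CCT5 sgRNAs in wild-type cells (0.10). Leaving out each library in turn gave the change of CCT8 in wild-type cells as -0.18 to 0.079 (0.049 without wild-type day 9 replicate 2). The difference then ran between -0.22 and 0.14 for CCT2 (also 0.088, 0.052 and 0.089), between -0.25 and 0.26 for CCT4 (also -0.016 and -0.020), between -0.14 and 0.11 for CCT5 (also 0.0045 and 0.078) and between -0.41 and 0.096 for CCT6A (also 0.088), the values in parentheses being others of the opposite sign to the reported one. Summing without the top sgRNA by abundance moved CCT3 to -2.17 in mutant and -2.68 in wild-type cells, CCT6A to -2.88 in mutant cells, TCP1 to -1.52 and CCT8 to -0.33 in wild-type cells, and the difference of CCT6A to -1.15 and of CCT4 to 0.60, none of the differences past the threshold. With limma on mean log2 CPM, TCP1 was -1.60 in mutant and -2.44 in wild-type cells, and the difference of CCT2 was -0.43. Counts of rare sgRNAs, such as TCP1 sgRNAs 3 and 4 and CCT6A sgRNA 3, limit the size of their changes. The cause of these shifts was not tested.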
